A study of Gallus gallus with 12 samples.

Results

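Breast muscle (Pectoralis major) of 6 birds with white striping and wooden breast was compared with that of 3 birds with a normal fillet, and all 9 were chosen by the level of a W-chromosome transcript on their arrays. In birds the female carries the W chromosome, and HINTW is a gene on it. An array was kept where its brightest HINTW row lay below 6 on the log2 scale, which left 9 of the 12 arrays of the study. The 6 myopathy birds are myopathy birds 1 to 6, and the 3 normal birds are normal birds 2, 3 and 6. All 12 birds were Ross 708 broilers, a commercial hybrid bred for rapid growth, labelled male and reared in the same flock to an average live weight of 3.7 kg. Each bird gave 1 whole-transcript array, so replicates are separate birds, and the table held a log2 level for each of 20804 transcript clusters.

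White striping appears as pale lines along the muscle fibres, and wooden breast as a hardened, pale fillet. In both, fibres degenerate and regenerate while fat and fibrous tissue accumulate between them. Breast muscle consists almost wholly of fast fibres that work by glycolysis, so genes of slow or cardiac fibres are normally quiet in it. Osteopontin, the product of SPP1, is a secreted protein that binds integrins and CD44 and is made by macrophages and other cells in injured muscle. NFIL3 is a leucine-zipper transcription factor that represses outputs of the circadian clock and acts in immune cells.

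HINTW, which chose the arrays, lay between 2.46 and 2.99 on the 9 W-negative arrays, the 2.99 being normal bird 3, and no test was made of it. The other 3 normal arrays, birds 1, 4 and 5, read 8.51, 9.41 and 9.27, against their label of male. No array fell between 2.99 and 8.51. ATP5F1AW, a second gene on the W, ran from 7.68 to 8.11 on those 3 arrays. No myopathy array was W-positive, so in a comparison of myopathy with the W-positive birds the sex chromosomes, Z as well as W, and the phenotype cannot be told apart. Array medians ran from 4.05 to 4.10 on the 9 arrays, and correlations between them from 0.941 to 0.987. Of the 15 listed breast muscle markers 7 were measured by name, ACTA1, TTN, TNNC2, TNNT3, ACTN2, TNNI2 and PVALB. Their mean level was 10.48 to 11.08 in myopathy birds and 10.68 to 10.85 in normal birds.

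The question was how affected fillets differ from normal ones once W-positive birds are set aside. SPP1 was 6.52-fold higher in myopathy muscle and was the 1 named gene of 10668 past an adjusted p of 0.05 (0.00937%). NFIL3 was 3.20-fold higher and missed that threshold narrowly. Genes of slow and cardiac fibres, extracellular matrix genes and chaperones were among the other higher genes. DUSP8, SRD5A2 and AMPD1 had the largest negative differences among non-overlapping named genes. In limma's fit over all clusters 3 of 20804 passed (0.0144%), all of them higher. Under the threshold there were 0 lower clusters, whereas an unadjusted p under 0.05 was reached by 1914 higher clusters (9.20%) and 1771 lower clusters (8.51%). Median centring of the arrays gave 9 calls, 6 higher and 3 lower, and quantile normalization gave 5, 3 higher and 2 lower.

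Size and separation gave a larger set than the test did. Groups whose values do not overlap were found for 946 clusters higher in myopathy (4.55%) and 863 lower (4.15%). With a difference of at least 1 on the log2 scale, which is 2-fold, 115 clusters remained on the higher side (0.553%) and 14 on the lower side (0.0673%). Counted as genes with a proper symbol, 1 cluster per gene, these were 83 of 10668 higher (0.778%) and 5 lower (0.0469%). The median difference of all clusters was -0.03. Without the size limit 673 named genes were higher (6.31%) and 377 lower (3.53%) without overlap. An unadjusted p under 0.05 was reached by 12.8% of named genes as higher and 6.97% as lower. These 2 shares are the background for all list counts at that p. A 2-fold or larger higher level, with or without overlap, was found for 1.61% of named genes. On the Z chromosome lay 8 of the 83 higher genes, among them NFIL3, MAP1B, LVRN, ARRDC3 and LPL, and 4.46% of all named genes are on Z.

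SPP1 measured 6.80, 7.08 and 8.33 (lowest, median and highest) in myopathy birds, against 4.11, 4.83 and 4.69 in normal birds 2, 3 and 6. The groups do not overlap, and the lowest myopathy bird lay well above the highest of these normal birds. Means were 7.25 ± 0.57 (SD, n = 6) in myopathy and 4.54 ± 0.38 (SD, n = 3) in normal muscle. The difference was 2.71 ± 0.31 (moderated SE), with limma's adjusted p = 0.0324. SPP1 was named for complete separation of these same birds, so its values are a description and no permutation test is given. The call was lost when any of normal birds 2, 3 and 6 or myopathy birds 1, 3 and 4 was left out, with a difference of 2.49 to 2.85 and an adjusted p of 0.00437 to 0.174 over the 9 fits that leave out a bird.

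The W-positive normal birds did not resemble the other normal birds in SPP1. Their SPP1 levels were 7.69, 6.28 and 7.86 in birds 1, 4 and 5. Bird 4 lay below every myopathy bird, while birds 1 and 5 lay within the myopathy range. SPP1 in myopathy minus W-positive normal muscle was -0.03 ± 0.37 (limma's adjusted p = 0.979), and in W-positive minus W-negative normal muscle it was 2.73 ± 0.43 (adjusted p = 0.0106). These contrasts share birds with the main one and are not independent of it. With all 12 arrays the SPP1 difference was 1.34 and the adjusted p 0.215.

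NFIL3 measured 6.09, 6.33 and 6.97 in myopathy birds, against 4.35, 5.0 and 4.95 in normal birds 2, 3 and 6. The lowest myopathy bird stood above all 3 normal birds. The difference was 1.68 ± 0.22, and limma's adjusted p was 0.050, just above the threshold before rounding. NFIL3 was named for its separation of these birds too, and its values are likewise a description. Leaving out a bird gave differences of 1.47 to 1.79 and adjusted p-values of 0.0417 to 0.184, and NFIL3 passed without myopathy bird 2 or myopathy bird 5. In the W-positive normal birds NFIL3 read 4.46, 4.69 and 5.03, all below every myopathy bird. Myopathy minus W-positive normal was 1.72 (limma's adjusted p = 0.000928). NFIL3 lies on the Z chromosome, whose part in this contrast was not tested. The same myopathy birds, for whose high levels NFIL3 was named, stand in both contrasts, so the 1.72 is no independent support. By level, NFIL3 was low in both sets of normal birds whereas SPP1 was low in 1 set.

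**Figure D1:**
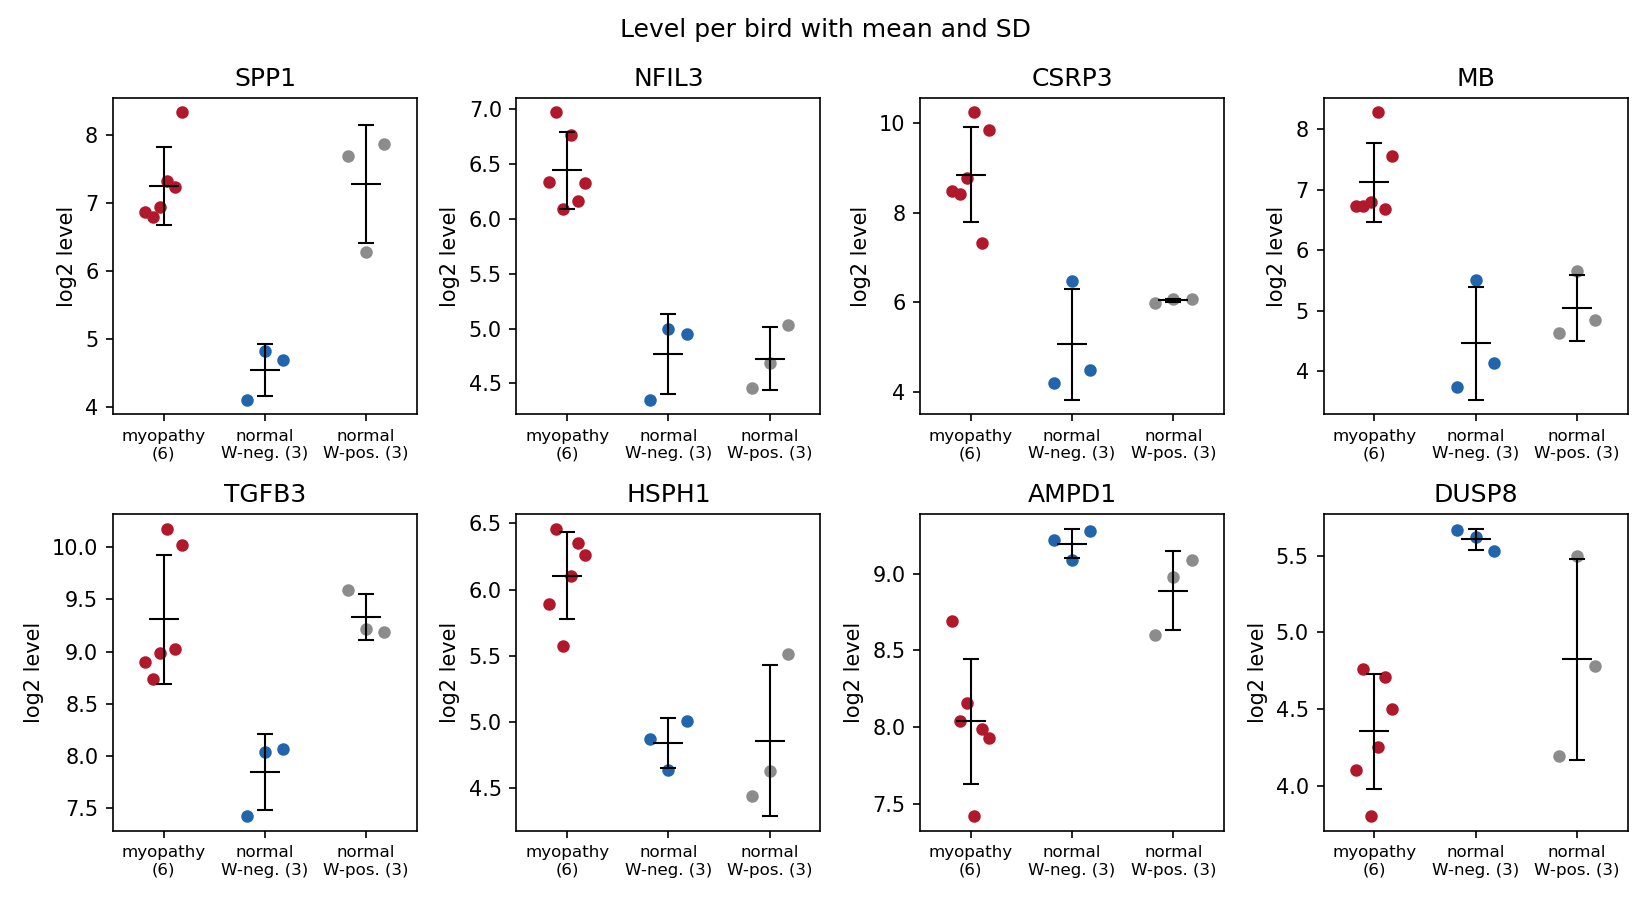
Log2 level of 8 genes in each bird (points), with group mean and SD (bars), for myopathy, W-negative normal and W-positive normal birds, each panel with its own axis range. NFIL3 is low in all 6 normal birds, whereas the means of SPP1 and TGFB3 in W-positive normal birds are close to those of myopathy birds.

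The unnamed clusters past the threshold were 15553833 and 15532109. Cluster 15553833 measured 4.86, 5.26 and 5.71 in myopathy birds, against 3.47, 3.62 and 3.21 in normal birds 2, 3 and 6, a difference of 1.82 ± 0.18 (limma's adjusted p = 0.0234). Cluster 15532109 measured 5.11, 5.33 and 5.43 in myopathy birds, against 4.61, 4.41 and 4.46 in the same normal birds, a difference of 0.83 ± 0.10 (adjusted p = 0.0324). In both clusters the groups stood apart. In the W-positive normal birds 15532109 read 4.60 to 4.94, below every myopathy bird, and 15553833 read 4.43, 3.92 and 5.27 in birds 1, 4 and 5, with bird 5 alone inside the myopathy range.

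Genes of slow and cardiac fibres held several of the largest differences. Of 18 measured members of the list 7 were higher and 0 lower without overlap, beside 6.31% and 3.53% of all named genes. The median difference was 0.80. None passed limma's test (0 of 18), with 10 higher and 1 lower at an unadjusted p under 0.05, beside 12.8% and 6.97% of all named genes. CSRP3, the muscle LIM protein of the Z-disc, measured 7.33, 8.63 and 10.24 in myopathy birds, against 4.20, 6.48 and 4.49 in normal birds 2, 3 and 6. The myopathy birds all lay above the normal birds, of which bird 3 was the highest. CSRP3 was 13.8-fold higher, a difference of 3.79 ± 0.65 (adjusted p = 0.0749). MB, the oxygen-binding myoglobin of red muscle, measured 6.68, 6.76 and 8.28 in myopathy birds, against 3.73, 5.51 and 4.13 in the normal birds, again without overlap. Its difference was 2.67 ± 0.44 (adjusted p = 0.0710). CSRP3 and MB both also lay above all W-positive normal birds, by 2.82 (adjusted p = 0.0285) and 2.08 (adjusted p = 0.0259). The same myopathy birds stand in both contrasts.

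Several sarcomere genes had larger mean differences from the W-negative than from the W-positive birds. They were named for a large difference from the W-negative birds, so a smaller one from other normal birds is no trait by itself. MYOZ2, a Z-disc protein of slow and cardiac fibres, was 2.68 ± 0.55 higher than in W-negative and 1.14 higher than in W-positive normal birds. MYOM3, an M-band protein, was 2.75 and 0.81 higher, LMOD2, which nucleates actin filaments, 2.09 and 1.07 higher, and MYH15, a myosin heavy chain of the chicken ventricle, 2.57 and 0.25 higher. MYH15 measured 3.36, 5.43 and 7.97 in myopathy birds, against 2.95, 2.97 and 3.33 in W-negative normal birds and 6.02, 5.14 and 5.05 in W-positive normal birds 1, 4 and 5. Myopathy bird 5 was thus barely above the W-negative birds in MYH15 and below all W-positive ones. ATP2A2, the calcium pump of slow and cardiac sarcoplasmic reticulum, was 1.57 ± 0.41 higher. Several listed genes did not take part. MYH7 differed by -0.13, TNNC1 by -0.19 and CASQ2 by -0.08, all with overlapping groups. CASQ2 averaged 11.42 in W-negative normal birds, so it was not a quiet gene in this muscle. FHL2, a LIM-domain protein, had a difference of -1.21 (adjusted p = 0.270) with overlapping groups. Myopathy bird 4 had the highest list mean and normal bird 2 the lowest. Without normal bird 2 the list median was 0.60, and without both birds 0.53. In these bulk samples a different share of cells and a different amount of RNA per cell cannot be told apart.

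Fast-fibre genes, the usual make-up of this muscle, differed in both directions. Of 17 measured, 2 were higher and 3 lower without overlap, beside 6.31% and 3.53% of all named genes. The median difference was -0.09 and the mean difference 0.28. The list's mean level was 9.96 to 10.23 in myopathy birds and 9.59 to 9.95 in normal birds, without overlap. By limma's test 0 of 17 passed, with 4 higher and 5 lower at an unadjusted p under 0.05, beside 12.8% and 6.97% of all named genes. ACTA1, skeletal actin, averaged 12.64 in myopathy and 12.65 in normal birds, and TNNT3, fast troponin T, differed by -0.08. The myosin heavy chain genes of the fast cluster split. MYH1C was 1.31 ± 0.42 and MYH1B 1.87 ± 0.43 higher without overlap, MYH1G was 2.27 ± 0.59 higher with overlap, and MYH1E differed by -0.30 without overlap. These genes are close copies of each other, so their array levels may share signal and are uncertain. MYH1C measured 11.43, 11.49 and 11.67 in myopathy birds, against 8.71, 10.71 and 11.19 in normal birds 2, 3 and 6. The myopathy birds were nearly equal, and the spread lay among the normal birds.

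Some genes of denervated or regenerating muscle were also higher, while 7 of the 24 measured had a negative difference. Of 24 measured myogenesis genes 5 were higher and 0 lower without overlap, beside 6.31% and 3.53% of all named genes. The list median was 0.18. In limma's fit 0 passed, while 8 were higher and 0 lower at an unadjusted p under 0.05, beside 12.8% and 6.97% of all named genes. Without normal bird 6 the 5 became 9, and without normal bird 2 the median was 0.29. Leaving out a bird can only make separation easier, for all genes alike. Over all clusters, those separated by at least 2-fold rose from 129 to 372 without normal bird 6. That cluster count has a size limit and takes both directions, so it is no background for a list count. The 6.31% and 3.53% hold for all 9 birds, here and below, and are no background for counts without a bird. The share of all named genes in fits without a bird was not counted. List counts from those fits are therefore a description only. Against the W-positive birds the list median was 0.04, with 14 of 24 positive. CHRNG, the embryonic subunit of the muscle acetylcholine receptor, was 1.42 higher (adjusted p = 0.130). CHRND, another subunit, was 0.88 higher and MUSK, the receptor kinase of the neuromuscular junction, 0.72 higher. CDH2, N-cadherin, was 0.95 higher. CHRND and MUSK also lay above all W-positive normal birds, which CHRNG and CDH2 did not. Both contrasts use the same myopathy birds, so this is no independent support.

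**Figure D2:**
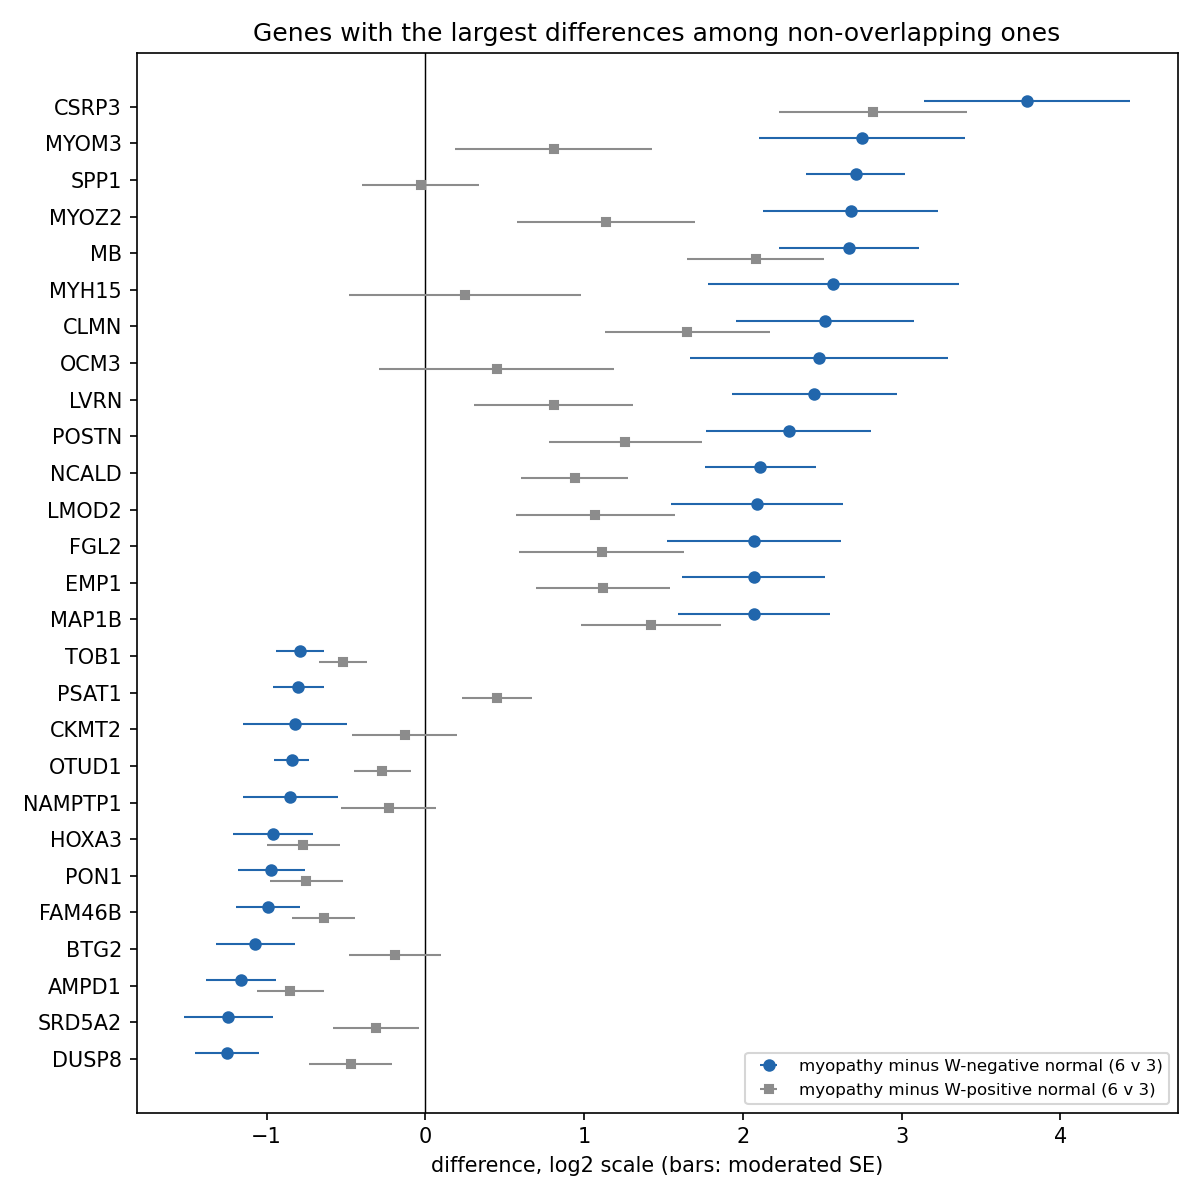
Difference on the log2 scale with moderated SE for the 15 largest positive and 12 largest negative differences among non-overlapping genes, for myopathy minus W-negative normal (circles) and myopathy minus W-positive normal birds (squares). SPP1 and MYH15 sit near 0 against W-positive birds (-0.03 and 0.25), and CSRP3 keeps 2.82 of 3.79. All genes were chosen by the difference from the W-negative birds, which favours larger values for the circles.

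Extracellular matrix genes were higher by large amounts, mostly with overlapping groups. Of 15 measured collagens 14 had a positive difference, 9 of them at least 2-fold, and the median was 1.15. Yet 0 collagens separated the groups, beside 6.31% of all named genes higher and 3.53% lower. Limma's test passed 0 collagens, and 10 were higher at an unadjusted p under 0.05, beside 12.8% of all named genes. COL12A1, which coats collagen fibrils, measured 5.32, 7.22 and 7.79 in myopathy birds, against 3.77, 4.24 and 5.33 in normal birds 2, 3 and 6. Myopathy bird 5 was the only myopathy bird that did not exceed normal bird 6 in COL12A1. Its difference was 2.49 ± 0.53 (adjusted p = 0.105). Without normal bird 6, 10 collagens separated, and 9 did without myopathy bird 5. Separation is easier for all genes in these fits, and the share of all named genes that separated in them was not counted. Over all clusters, those separated by at least 2-fold rose from 129 to 372 without normal bird 6 and to 269 without myopathy bird 5. These cluster counts have a size limit and take both directions, so they are no background for the 10 and the 9. COL1A1, the main fibrillar collagen chain, was 1.29 higher, whereas COL4A1 and COL4A2 of the basement membrane differed by 0.17 and 0.03. Normal bird 2 was the lowest bird, at -1.38 from the list's mean over the 9 birds, and without it the median was 0.67. Against the W-positive birds the collagen median was 0.62.

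Matrix glycoproteins and proteoglycans followed the collagens. Of 30 measured, 26 had a positive difference, 13 were at least 2-fold higher, and the median was 0.87. Without overlap 3 were higher and 1 lower, beside 6.31% and 3.53% of all named genes. Without normal bird 6 there were 15 higher without overlap and without myopathy bird 5 there were 13, in fits where separation is easier for all genes. The share of all named genes in these fits was not counted. Without normal bird 2 the median was 0.45. Against the W-positive birds the median was 0.51. SPP1 was the 1 member that passed, while 16 were higher and 0 lower at an unadjusted p under 0.05. The shares of all named genes at that p were 12.8% and 6.97%. SPP1 is also among the 3 without overlap and the 16. It was named for its separation of these same birds, so its part in these counts is a description and no support for the list. SPARCL1, a SPARC-like matrix protein, was the lower one, with a difference of -0.20. POSTN, or periostin, a matricellular protein of fibrotic tissue, measured 9.04, 9.87 and 10.46 in myopathy birds, against 5.90, 7.77 and 8.80 in normal birds 2, 3 and 6. The groups were close to touching at myopathy bird 5 and normal bird 6. The POSTN difference was 2.29 ± 0.52 (adjusted p = 0.113), and all W-positive birds were also below every myopathy bird. The myopathy birds are the same in both comparisons. MGP, matrix Gla protein, was 1.84 ± 0.36 higher (adjusted p = 0.0862) without overlap. COMP, cartilage oligomeric matrix protein, measured 7.89, 9.30 and 10.06 in myopathy birds, against 5.24, 6.93 and 7.95 in the normal birds, so that 1 myopathy bird lay inside the normal range. COMP had a difference of 2.47 ± 0.57 (adjusted p = 0.114), and FN1, or fibronectin, one of 1.94 ± 0.56 (adjusted p = 0.147).

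Among matrix processing enzymes 2 of 20 were higher without overlap and 0 lower, beside 6.31% and 3.53% of all named genes, with a median of 0.50. The 2 became 6 without normal bird 6 and 5 without myopathy bird 5, where separation is easier for all genes. The median was 0.30 without normal bird 2. SERPINH1, the collagen chaperone, was 1.26 higher and ADAMTS2, which trims procollagen, 0.93 higher. With limma 0 enzymes passed, and 10 were higher at an unadjusted p under 0.05, beside 12.8% of all named genes. The receptors of osteopontin were measured for 8 of 9 listed genes, and all 8 differences were positive, with a median of 0.50. Only CD44 separated the groups, beside 6.31% of all named genes higher. Without normal bird 6 or without myopathy bird 5, where separation is easier for all genes, 3 receptors did. For enzymes and receptors alike, the share of all named genes in these fits was not counted. CD44 measured 5.46, 5.81 and 6.46 in myopathy birds, against 3.96, 4.86 and 5.17 in normal birds 2, 3 and 6, without overlap, a difference of 1.23 ± 0.29 (adjusted p = 0.115). The integrin chain ITGA8 was 1.33 ± 0.51 higher with overlap, and ITGB1 and ITGB3 differed by 0.07 and 0.08.

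Of 21 genes of growth factor signalling to fibroblasts 4 were higher and 0 lower without overlap, beside 6.31% and 3.53% of all named genes. The list median was 0.34. The 4 became 9 without normal bird 6 or without myopathy bird 5, where separation is easier for all genes and the share of all named genes was not counted. In limma's fit 0 passed, and 9 were higher at an unadjusted p under 0.05, beside 12.8% of all named genes. TGFB3, a ligand of the TGF-beta family, measured 8.74, 9.01 and 10.18 in myopathy birds, against 7.42, 8.04 and 8.06 in normal birds 2, 3 and 6. The groups were apart, with a difference of 1.47 ± 0.33 (adjusted p = 0.113). In W-positive normal birds 1, 4 and 5 TGFB3 read 9.59, 9.22 and 9.19, inside the myopathy range, and myopathy minus W-positive normal was -0.02. FGF7, a growth factor made by mesenchymal cells, was 1.30 higher, and TGFBR3, a co-receptor for TGF-beta, 0.86 higher.

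Fibroblast and macrophage markers were also higher where these matrix genes were. Of 14 fibroblast and progenitor markers 12 had a positive difference and 9 were at least 2-fold higher, with a median of 1.31. Without normal bird 2 the median was 0.76. Without overlap 2 were higher and 0 lower, beside 6.31% and 3.53% of all named genes. The 2 became 8 without normal bird 6 or without myopathy bird 5, where separation is easier for all genes and the share of all named genes was not counted. Against the W-positive birds the fibroblast median was 0.57. Their mean level was 6.27 to 7.41 in myopathy birds and 5.06 to 6.56 in normal birds, and the list shares COL1A1, COL1A2, LUM and DPT with the matrix lists. OSR1, a transcription factor of connective tissue cells, was 1.65 higher and THY1, a surface protein of fibroblasts, 1.44 higher, each without overlap. Differences were negative in 2 of the 14 fibroblast markers, the lowest at -0.34. In limma's fit 0 of the 14 passed, with 10 higher and 1 lower at an unadjusted p under 0.05. The shares of all named genes at that p were 12.8% and 6.97%. Of 12 macrophage markers 10 had a positive difference, with a median of 0.40 and a mean level of 4.95 to 5.71 in myopathy birds, against 4.46 to 5.04 in normal birds. Without normal bird 2 the macrophage median was 0.27. Against the W-positive birds it was 0.16, and 0 of the 12 separated from them, beside 5.93% of all named genes higher and 3.35% lower. Mean levels of the macrophage list in W-positive birds were 4.94 to 5.24. SPI1, a transcription factor of the myeloid lineage, was 1.21 higher and CTSS, a lysosomal protease, 1.09 higher. TLR4 and MRC1 also separated the groups, at 0.60 and 0.17, while GPNMB differed by -0.08 and LYZ by -0.14. Thus 4 of 12 macrophage markers were higher and 0 lower without overlap, beside 6.31% and 3.53% of all named genes, and 0 passed limma's test. Averages below 4 were found for 5 of the 12 macrophage markers. The part of either cell type in the differences of SPP1 or the matrix genes was not tested. Endothelial markers had a median of -0.06, erythrocyte markers -0.09, nerve markers 0.02, adipocyte markers 0.01, heterophil and mast cell markers 0.06 and T, B and NK cell markers 0.04. In these lists the largest differences with overlap were AVD, or avidin, at 1.52, JCHAIN, the joining chain of antibodies, at 1.43, HBAD, an alpha globin, at 0.72 and SOX18, an endothelial transcription factor, at -0.34. The adipocyte markers LPL and PPARG were higher without overlap, at 1.09 and 0.59, and AQP7 and PCK1 lower, both at -0.23, as was S100B of Schwann cells at -0.15. Both groups averaged below 4 in 6 of the 9 adipocyte markers, AQP7 among them, and in 6 of the 8 nerve markers.

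**Figure D3:**
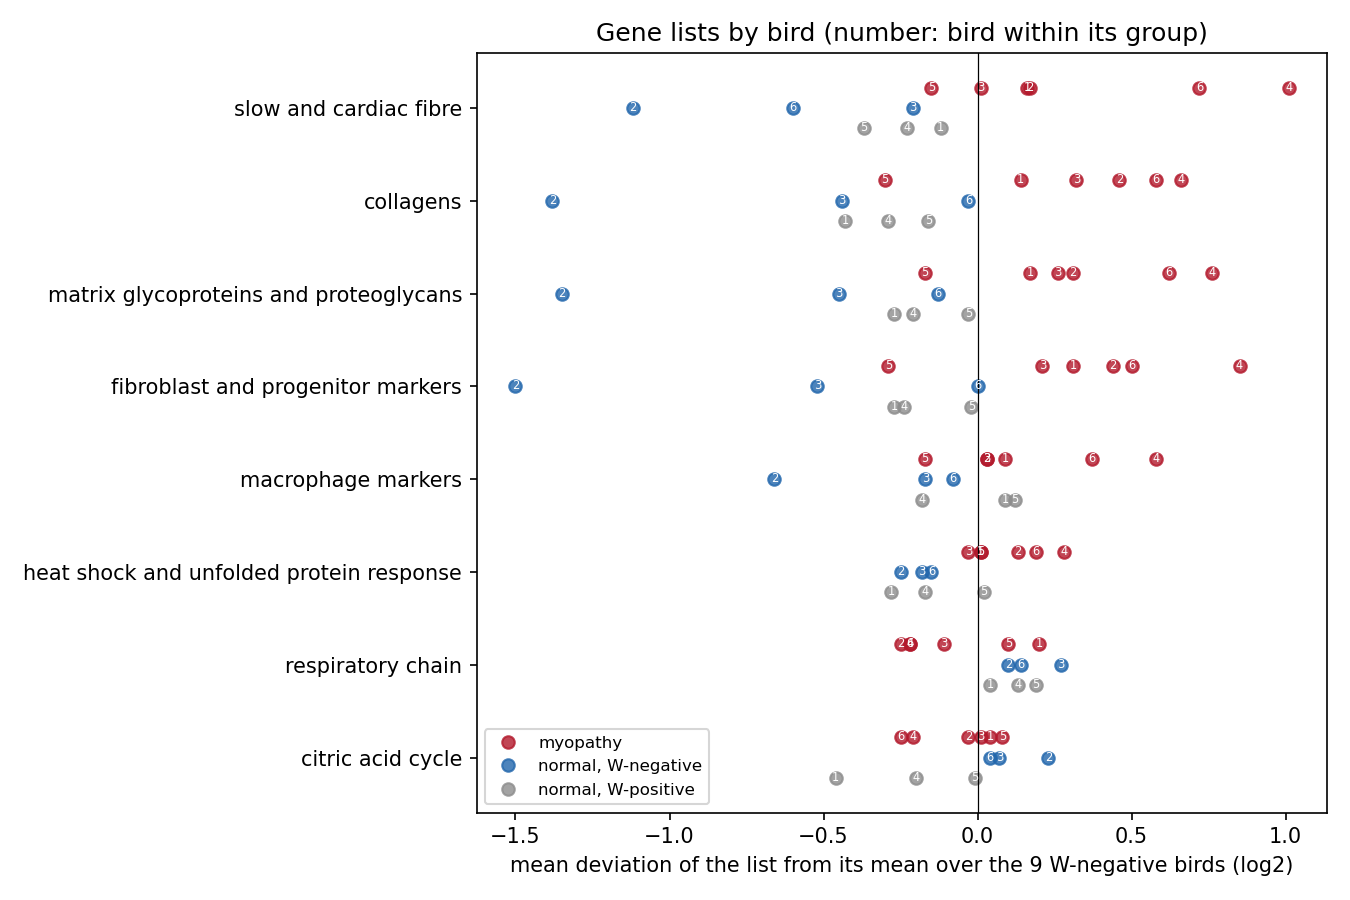
Mean deviation of 8 gene lists from their mean over the 9 W-negative birds (log2), 1 numbered point per bird, for myopathy, W-negative normal and W-positive normal birds. Normal bird 2 is lowest in slow fibre, collagen and fibroblast genes (-1.12 and -1.38 in the first 2), and myopathy bird 5 is the lowest myopathy bird in these and in the matrix glycoprotein and macrophage lists.

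Chaperones were mostly higher, in small steps with little spread of the list mean among W-negative normal birds. Of 33 measured genes for heat shock proteins and the unfolded protein response, 11 were higher and 0 lower without overlap. The shares of all named genes were 6.31% and 3.53%, and the list median was 0.25. Differences were positive in 24 genes and negative in 9. The list's mean level was 7.15 to 7.46 in myopathy, 6.93 to 7.03 in W-negative and 6.90 to 7.20 in W-positive normal birds. W-positive normal birds thus overlapped the myopathy birds in list mean. From the W-positive birds 4 of the 33 separated as higher and 1 as lower, beside 5.93% and 3.35% of all named genes in that contrast. In limma's fit 0 passed, with 15 higher and 0 lower at an unadjusted p under 0.05, beside 12.8% and 6.97% of all named genes. HSPH1, a large chaperone that serves as an exchange factor for HSP70 proteins, measured 5.57, 6.18 and 6.46 in myopathy birds, against 4.87, 4.64 and 5.01 in normal birds 2, 3 and 6. Every myopathy bird lay above these normal birds, by 1.26 ± 0.19 on average (adjusted p = 0.0701). HSPH1 in the W-positive normal birds was 4.44, 4.63 and 5.51, also below all myopathy birds. This difference, which shares the myopathy birds with the main one, was 1.24 (adjusted p = 0.0171). CRYAB, a small heat shock protein of muscle, was 0.92 higher, HSPD1, the mitochondrial chaperonin, 0.69 higher and HSPA8, a constitutive HSP70, 0.86 higher. HSPA4L, of the HSP110 family, was 0.94 higher and CANX, the chaperone calnexin of the endoplasmic reticulum, 0.87 higher, both without overlap.

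Among all named genes 6.31% were higher and 3.53% lower without overlap, the background for the 3 lists that follow. Of 27 genes of proteolysis and autophagy 8 were higher and 0 lower without overlap, with a median of 0.10. Most of the 8 were lysosomal cathepsins, among them CTSS at 1.09, CTSC at 0.88, CTSA at 0.78 and CTSB at 0.50. CAST, the inhibitor of calpains, was 0.86 higher. Of 27 antioxidant genes 7 were higher and 1 lower without overlap. SOD3, the secreted superoxide dismutase, was 1.59 higher (adjusted p = 0.110) and HMOX1, which breaks down haem, 0.77 higher, MGST1, a microsomal glutathione transferase, 0.67 higher and TXNRD1, thioredoxin reductase, 0.63 higher, whereas GSTA4, a glutathione transferase, differed by -0.45. Lipid uptake and storage genes had 5 of 20 higher and 0 lower without overlap. APOA1, an apolipoprotein, was 1.55 higher, LPL, lipoprotein lipase, 1.09 higher and CD36, a fatty acid transporter, 0.95 higher. Other APOA1 clusters differed by 1.34 and 1.57 with overlapping groups. Across these 3 lists 0 genes passed limma's test, with 10, 9 and 6 higher and 0, 3 and 1 lower at an unadjusted p under 0.05. The shares of all named genes at that p were 12.8% and 6.97%.

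Energy metabolism lists had small median differences, and those of respiratory chain genes were mostly negative. Single differences ran from -0.87 to 0.50 in the respiratory chain and from -0.62 to 1.26 in glycolysis. Of 45 measured respiratory chain subunits 4 were above 0 in difference, the list median was -0.26, and 2 were lower without overlap, NDUFA10 of complex I with a difference of -0.23 and UQCRC2 of complex III with -0.47. These 2 of 45 compare with 3.53% of all named genes. The count was 10 without normal bird 6 and 8 without myopathy bird 5, where separation is easier for all genes. With limma 0 subunits passed, while 21 were lower and 0 higher at an unadjusted p under 0.05, beside 6.97% and 12.8% of all named genes. Against the W-positive birds the median of the same list was -0.22. Of 19 citric acid cycle genes 4 had a positive difference and the median was -0.21, but against the W-positive birds it was 0.06, with 15 of 19 positive. Without overlap 2 were higher and 1 lower, beside 6.31% and 3.53% of all named genes. Without myopathy bird 5, where separation is easier for all genes, 6 were lower. For this list and the respiratory chain, the share of all named genes in fits without a bird was not counted. IDH3B, a subunit of isocitrate dehydrogenase, had a difference of -0.55, against 0.58 for ACO1, the cytosolic aconitase, and 0.09 for DLST, a subunit of the oxoglutarate dehydrogenase complex. ACO1 and DLST also lay above all W-positive normal birds, but the same myopathy birds stand in both contrasts. ACO1 lies on the Z chromosome, and DLST had an unadjusted limma p of 0.229 against the W-negative birds. Glycolysis had a median of -0.11, with LDHB, the heart-type lactate dehydrogenase, 1.26 higher and GPI, which isomerises glucose phosphate, at -0.37, both without overlap. Fatty acid oxidation had a median of 0.01, with ACAA2, a mitochondrial thiolase, 0.54 higher without overlap.

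The glycogen and AMPK list had 3 of 17 members lower and 1 higher without overlap, beside 3.53% and 6.31% of all named genes. PHKA1 and PHKG1, subunits of the kinase that activates glycogen breakdown, differed by -0.73 and -0.48, and PRKAB2, a regulatory subunit of AMPK, by -0.54. Another PRKAB2 cluster differed by -0.19 with overlapping groups. Limma's test passed 0 members of the list, with 2 higher and 5 lower at an unadjusted p under 0.05. The shares of all named genes at that p were 12.8% and 6.97%. The higher one was PPP1CB, a catalytic subunit of protein phosphatase, at 0.49, and the median was -0.07, or -0.13 without normal bird 2.

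The remaining lists had medians close to 0. Their counts without overlap stand beside 6.31% of all named genes higher and 3.53% lower, and several are near these shares. Calcium handling had 2 of 19 higher and 2 lower without overlap and a median of -0.13. ATP2A2 and RCAN1, an inhibitor of calcineurin at 0.64, were on the higher side. STIM1 and ORAI1 of store-operated calcium entry, at -0.45 and -0.43, were on the lower side. Another STIM1 cluster differed by -0.17 with overlapping groups. Cytokines and chemokines had 4 of 25 higher and 2 lower without overlap and a median of 0.03. IL1R1, a receptor of interleukin 1, was 1.02 higher and its ligand gene IL1B differed by -0.44, while CXCL12 and IL1RL1 were each 0.60 higher. Both groups averaged below 4 in 15 of the 25, IL1RL1 among them, so these differences are at dim levels. Cell cycle genes had 1 of 29 higher and 2 lower without overlap, MCM6, a replication helicase subunit, at 0.45, BIRC5, or survivin, at -0.33 and E2F1, a transcription factor of the cell cycle, at -0.23. In 18 of the 29, with BIRC5 and E2F1 among them, both groups averaged below 4. The immediate early and stress list had 2 of 15 higher without overlap, BCL6, a transcriptional repressor, at 0.65 and ATF4, a factor of the integrated stress response, at 0.44. Another ATF4 cluster differed by 0.15 with overlapping groups. The hypoxia list had 1 of 16 higher without overlap, VHL at 0.25. In limma's test 0 genes of these 5 lists passed, with 3, 6, 4, 4 and 1 higher and 4, 1, 3, 1 and 0 lower at an unadjusted p under 0.05. Of all named genes 12.8% were higher and 6.97% lower at that p, and some of these counts are near those shares.

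The 5 named genes lower by at least 2-fold without overlap were DUSP8, SRD5A2, AMPD1, TUSC3 and BTG2. DUSP8, a phosphatase of MAP kinases, measured 3.80, 4.37 and 4.76 in myopathy birds, against 5.67, 5.62 and 5.53 in normal birds 2, 3 and 6. These normal birds were nearly equal and all above the myopathy birds, and the difference was -1.25 ± 0.20 (adjusted p = 0.0710). AMPD1, the AMP deaminase of fast fibres, measured 7.42, 8.02 and 8.69 in myopathy birds, against 9.22, 9.09 and 9.28 in the normal birds. Again the groups did not overlap, with a difference of -1.16 ± 0.22 (adjusted p = 0.0822). AMPD1 in myopathy minus W-positive normal muscle was -0.85 (adjusted p = 0.0550), and W-positive bird 1, at 8.60, lay inside the myopathy range. SRD5A2, a steroid reductase, differed by -1.24, TUSC3, a subunit of the glycosylation machinery, by -1.07 and BTG2, an antiproliferative protein induced by p53, by -1.07.

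Smaller negative differences included groups with little spread, as in OTUD1, and wide ones, as in CKMT2. OTUD1, a deubiquitinase, measured 5.26, 5.46 and 5.60 in myopathy birds, against 6.38, 6.25 and 6.17 in normal birds 2, 3 and 6, a difference of -0.84 ± 0.11 (adjusted p = 0.0502). In W-positive normal birds 1, 4 and 5 OTUD1 read 5.15, 6.15 and 5.82, with bird 1 below every myopathy bird. TOB1, of the same family as BTG2, differed by -0.79, FAM46B by -0.99, PON1, or paraoxonase, by -0.97 and CKMT2, the mitochondrial creatine kinase of sarcomeric muscle, by -0.82. CKMT2 ran from 6.94 to 8.56 in myopathy birds, against 8.57 to 8.91 in normal birds, so the groups nearly met. PON1 was lower than in all W-positive birds too, with the same myopathy birds in both comparisons. PSAT1, an enzyme of serine synthesis, differed by -0.80 from W-negative and by 0.45 from W-positive normal birds. HOXA3 differed by -0.96 on 1 cluster and by 0.53 on another, so its direction is uncertain. NAMPTP1, whose symbol names a copy of NAMPT, differed by -0.85 and may share signal with that gene.

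Further large positive differences belonged to genes of varied function. CLMN, an actin-binding membrane protein, measured 4.38, 5.12 and 7.29 in myopathy birds, against 3.19, 3.04 and 2.85 in normal birds 2, 3 and 6, and 3.83, 4.29 and 3.58 in W-positive birds 1, 4 and 5. All 6 normal birds were below the myopathy birds, by 2.52 ± 0.56 and by 1.65 against each set, with the same myopathy birds in both. OCM3, a calcium-binding protein of the parvalbumin family, was 2.48 ± 0.81 higher and ran from 4.71 to 9.31 among myopathy birds. LVRN, an aminopeptidase, was 2.45 higher, NCALD, a neuronal calcium sensor, 2.11 higher, MAP1B, a microtubule-associated protein, 2.07 higher, EMP1, a membrane protein, 2.07 higher and FGL2, a fibrinogen-like protein, 2.07 higher. SPG20, whose product is spartin, was 0.95 ± 0.13 higher and came after SPP1 and NFIL3 among named higher genes by p (adjusted p = 0.0532). TACR2, a tachykinin receptor, differed by -0.51 ± 0.09 at levels below 3 in both groups (adjusted p = 0.0749).

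The genes closest to SPP1 in pattern over the 9 arrays, by Pearson correlation, were ANXA2 (0.978), CAMK1D (0.976), PGM3 (0.975), DYNC1I2 (0.972) and TMEM19 (0.961). The group difference itself contributes to these values, and within the 6 myopathy birds they ran from 0.797 to 0.958. Closest to NFIL3 were PABPC1 (0.970), BCL6 (0.953), SNAI2 (0.953), FAM64A (0.946) and APC (0.945), with 0.556 to 0.929 within the myopathy birds. SNAI2, a transcription factor of mesenchymal cells, measured 7.71, 8.20 and 8.50 in myopathy birds, against 6.22, 6.83 and 7.09 in normal birds 2, 3 and 6. Its groups were well apart, by 1.47 ± 0.21 (adjusted p = 0.0701). NFIL3 is itself in the list of 12 measured clock genes. It was the 1 member that separated the groups, beside 6.31% of all named genes higher, and it was named for that separation. The count is therefore a description. The list median was 0.13, with ARNTL at 0.36, CLOCK at -0.17 and PER2 at -0.35. At an unadjusted limma p under 0.05, 2 of the 12 were higher and 0 lower, beside 12.8% and 6.97% of all named genes.

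The 83 higher genes were also set against the 3 W-positive normal birds. The same 6 myopathy birds, for whose high levels the genes were chosen, stand in both comparisons, so the counts that follow describe the W-positive birds and are no independent support. For 20 of the 83 all 3 W-positive birds lay below every myopathy bird, as they did for 5.93% of all named genes, for 20 genes 2 birds did, for 25 genes 1 bird and for 18 genes none. The difference against the W-positive birds had the same sign in 78 of 83. Its median size was 0.61, against 1.31 for the W-negative birds. The 83 genes were chosen for a large difference from the W-negative birds, which raises the 1.31. A smaller size against the W-positive birds is therefore no trait of those birds by itself. In the 3-group fit 7 of the 83 passed as higher than in W-positive birds, CSRP3, MB, NFIL3, HSPH1, LRRC30, ARRDC3 and PRODH, where 1.60% of all named genes did. PRODH, which starts proline breakdown, was 1.09 higher than in W-negative and 0.97 higher than in W-positive birds (adjusted p = 0.0169). ARRDC3, an arrestin-domain protein, was 1.16 and 1.08 higher, and LRRC30, a leucine-rich repeat protein, 1.17 and 1.16 higher. NFIL3 and ARRDC3 lie on the Z chromosome, whose part in the contrast with the W-positive birds was not tested.

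In 5 of the 83 genes the W-positive mean was at or above the myopathy mean, SPP1, TGFB3, CSTA, TTR and TMEM123. CSTA, a cysteine protease inhibitor, measured 5.10, 5.33 and 6.28 in myopathy birds, 3.07, 4.52 and 3.95 in W-negative normal birds 2, 3 and 6 and 7.08, 5.08 and 6.20 in W-positive normal birds 1, 4 and 5. The W-negative birds were lowest, and W-positive bird 1 was the highest of all. With 0 set at the mean of the W-negative normal birds and 1 at the myopathy mean, the W-positive mean had a median position of 0.56 over the 83 genes and was at 0.5 or above in 46. The choice of genes by their difference from the W-negative birds bears on this position too, so it is a description only. Of the 5 lower genes none had all 3 W-positive birds above the myopathy birds, against 3.35% of all named genes, 2 had 2 and 3 had 1. The W-positive normal birds differed from the W-negative ones at an adjusted p under 0.05 in 101 clusters (0.485%) and from the myopathy birds in 479 (2.30%). The first contrast sets 3 birds against 3 and the second 6 against 3, so the counts do not show which group is nearer.

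**Figure D4:**
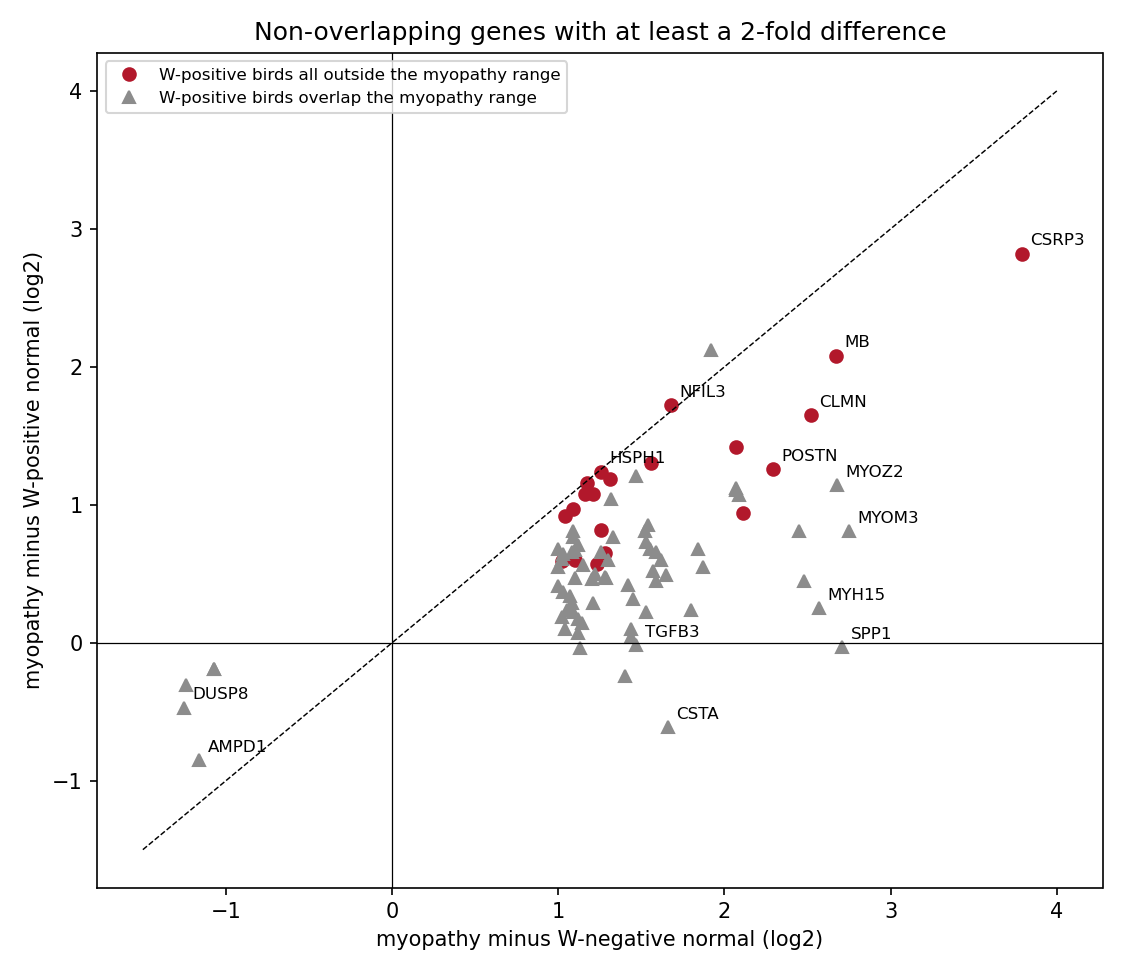
Myopathy minus W-negative normal (horizontal) against myopathy minus W-positive normal (vertical), log2, for the 88 named genes at least 2-fold apart without overlap. The dashed line marks equal differences. Circles mark the 20 genes in which every W-positive bird also lay below the myopathy birds, and most triangles lie well below the line. All genes were chosen by the horizontal difference, which favours points below the line on the higher side.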

How the data were processed

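Per the labels' protocols, biotin-labelled cDNA was made from 150 ng of total RNA of each bird with an Affymetrix kit, for 1 array. Partek is named in the submitters' processing notes without a version. The log2 values deposited by the authors, 1 per transcript cluster and array, were used unchanged. Their log base was inferred from the range of 1.04 to 12.89, and how arrays were scaled is not given in the sources used here. Of 20804 clusters 12300 had 1 symbol, 256 several and 8248 none listed. Symbols were updated through Entrez IDs (11727 clusters matched) in a gene table of assembly GRCg7b. A gene with several clusters (651 of 11528) was represented by the brightest, and 895 rows were exact repeats.

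Arrays were split by HINTW at 6. Differences were fitted with limma 3.58.1 in R 4.3.3 (7 residual and 3.40 prior degrees of freedom), with p-values adjusted by Benjamini-Hochberg over all clusters. W-positive birds entered through a 3-group fit of 12 arrays. The number of arrays limits the precision. The fit was tested on simulated data. Figures used matplotlib 3.10.9.

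The birds, the 32 gene lists and the tests were chosen with earlier results of these data known. The text names every gene past the threshold, the 15 largest positive and 12 largest negative differences among non-overlapping genes whose brighter group averaged at least 5, the 3 smallest p-values in each direction, up to 4 non-overlapping members of each list or otherwise its largest difference, SPP1, NFIL3 and the 5 genes most like each. Other genes named, such as the members of lists given for contrast, were chosen after their values were seen. Alternatives covered scaling, dim clusters, array weights, repeated rows, size limits and leaving out birds. Autosomal genes alone and leaving out normal bird 2 with myopathy bird 4 were added after the data were seen.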

Additional observations from a re-analysis of the deposited data

Results flagged for a closer look

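Among 107 genes examined, 9 had 1 myopathy bird set apart from the other 5 by Dixon's criterion for 6 values, which chance meets in about 1 group in 20. Most of them concerned myopathy bird 4. In that bird LPL read 7.61 with the nearest bird at 6.77, PPARG 4.40 with the nearest at 3.55, TLR4 4.64 with the nearest at 4.03, CXCL12 5.93 with the nearest at 5.53 and VHL 5.69 with the nearest at 5.51. PHKG1 was low in it, at 8.55, with the nearest bird at 9.19. SPP1 stood out in myopathy bird 6, at 8.33, where the next bird read 7.33 and the lowest 6.80. TTN was low in myopathy bird 1, at 11.46 with the nearest at 11.63, and IL1RL1 was low in myopathy bird 5, at 2.66 with the nearest at 3.03.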

How the results depend on the processing

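The count of 3 called clusters was 3 with robust eBayes and 2 with an intensity trend, and moved to 5 under quantile normalization, 9 under median centring, 5 with array weights, 11 with the spread of all 3 groups, 25 among clusters above the median level (22 higher and 3 lower), 9 with repeated rows counted once, 238 with all 12 arrays (131 higher and 107 lower), 1 among autosomal named clusters and 0 without normal bird 2 and myopathy bird 4. Leaving out single birds gave 0 to 10. The 129 clusters separated by at least 2-fold became 474 at 1.5-fold, 16 at 4-fold, 35 with all 12 arrays and 85 among autosomal named clusters, and ran from 106 to 372 when a bird was left out, the highest without normal bird 6. The 101 clusters of W-positive minus W-negative normal muscle became 48 with the 6 normal arrays alone.

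SPP1 lost its call with all 12 arrays (1.34), without normal bird 2 and myopathy bird 4 (2.47) and in 6 of the 9 fits without a bird (2.49 to 2.85). NFIL3 gained one under median centring (1.67), with all 12 arrays (1.70), with the 3-group spread, among clusters above the median level and with repeated rows counted once (1.68 each), and ran from 1.47 to 1.79 without single birds. ACTA1, at -0.02, turned to 0.00 under quantile normalization and without normal bird 6, and to 0.03 with all 12 arrays, and ran from -0.04 to 0.00 without single birds. TTN, at 0.04, ran from -0.02, without normal bird 3, to 0.08 when single birds were left out and was 0.10 with all 12 arrays. The cause was not tested. No paired analysis was possible because replicate numbers were given in deposition order and match no bird to another. Titles number the normal birds 1 to 10 and the myopathy birds 11 to 20, so processing order, if the numbers record it, and phenotype cannot be told apart. The list medians kept their sign under every alternative in 23 of 32 lists.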
